A study of Homo sapiens with 6 samples.

Results

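The YAP/TEAD axis was read from 10 genes in DU145 cells, an established human line from metastatic CRPC. The set was given as a list of names and holds the coactivators YAP1 and WWTR1 (TAZ), the DNA-binding factors TEAD1 and TEAD4, and 6 of their targets, CYR61, CTGF, ANKRD1, AMOTL2, AXL and LATS2. They lie on chromosomes 1 (CYR61), 3 (WWTR1, AMOTL2), 6 (CTGF), 10 (ANKRD1), 11 (YAP1, TEAD1), 12 (TEAD4), 13 (LATS2) and 19 (AXL). All 10 names were found among the 27381 genes of the deposited table. RNA came from 6 libraries, 2 each labelled Scr (cells that received a scrambled sgRNA), CD24 KO and RCC2 KO (cells edited with CRISPR/Cas9 at CD24 or RCC2). All 3 groups were carried through Cas9 transfection, GFP sorting and expansion as clones, and the labels do not say which clone a library came from. The table gives FPKM (a level corrected for the length of the transcript and the size of the library) and a single value for each gene in each condition. The RCC2 KO column bears the name of the first RCC2 KO library, and whether the second library is part of it is not given. No difference below therefore has a replicate check, no test was possible, and the depth behind each value is unknown.

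The targeted RNAs went against the labels. CD24 was at 93.2 (Scr), 309 (column labelled CD24 KO) and 214 FPKM (column labelled RCC2 KO), and RCC2 was at 37.8, 14.2 and 41.8 FPKM. The table places its CD24 row on chromosome Y, where a near-identical copy of the gene lies, so that reads of the edited gene and of its copies cannot be told apart in this value. An RNA level also does not show whether an edited transcript still makes protein, and per the study's methods the clones were checked by Sanger sequencing and Western blot. Values without a column name are always in this order. The copy on chromosome Y concerns CD24 alone, and RCC2 RNA was lowest in the column labelled CD24 KO. The study's Western blots showed more RCC2 protein in CD24 KO cells, a different measure from RNA. Whether columns or libraries were exchanged was not tested. Every direction given here is that of the columns as labelled. The epithelial markers EPCAM, KRT8, KRT18, KRT19, CDH1 and CLDN4 were between 23.7 and 348 FPKM in the 3 columns. Of 10 markers of fibroblasts, endothelial cells and leukocytes, 9 were under 1 FPKM in every column, PTPRC and CD3E being listed at 0. The exception was CD68, a lysosomal protein of macrophages, at 37.1 (Scr), 81.5 (CD24 KO) and 38.4 FPKM (RCC2 KO), and its part in the results was not tested.

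YAP and TAZ carry no DNA-binding domain of their own and reach their target genes through TEAD factors. In crowded epithelial cells, the Hippo kinases MST and LATS phosphorylate YAP and TAZ, which then leave the nucleus or are degraded, whereas in sparse, spread cells they stay nuclear and the RNA of CYR61, CTGF and ANKRD1 is high. LATS2 and AMOTL2 are targets that also restrain YAP, which closes a feedback loop. RNA levels of YAP1 and WWTR1 do not report phosphorylation or location, so it is the targets that are commonly read as a gauge of culture density.

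Promoter letters were read beside the levels, and no binding was measured. The core of the TEAD site, GGAATG, was searched on both strands in RefSeq promoter windows (GRCh38.p14) from 250 bases before to 50 bases after each start site. Windows were found for 7 of the 10 genes, 10 windows in all, and not for TEAD1, TEAD4 and CYR61. At least 1 match lay in a window of 6 of these 7 genes, WWTR1 being the gene without one, and in 14.0% of all 35116 promoter windows. By gene, 16.7% of 27305 genes had a match in at least 1 window. The CTGF window held 3 matches and the ANKRD1 window 2, against 0.128% of all windows with at least 3 and 1.37% with at least 2. These promoters are printed whole because they hold the most matches, on the minus strand of chr6:131951373-131951622 for CTGF and of chr10:90921088-90921337 for ANKRD1, up to the base before the start site and with the TEAD core in capitals.
CTGF: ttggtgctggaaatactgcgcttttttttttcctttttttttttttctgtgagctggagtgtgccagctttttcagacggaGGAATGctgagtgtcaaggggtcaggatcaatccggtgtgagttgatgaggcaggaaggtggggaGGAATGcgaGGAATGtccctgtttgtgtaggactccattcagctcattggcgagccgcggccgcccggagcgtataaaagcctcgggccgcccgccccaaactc
ANKRD1: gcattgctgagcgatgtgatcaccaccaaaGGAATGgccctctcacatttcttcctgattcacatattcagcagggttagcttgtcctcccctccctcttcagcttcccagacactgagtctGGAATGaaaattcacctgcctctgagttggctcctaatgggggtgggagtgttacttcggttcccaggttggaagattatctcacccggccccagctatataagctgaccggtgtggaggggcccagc

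The 3 matches of CTGF begin 169, 104 and 95 bases before the start site and those of ANKRD1 220 and 128 bases before it. YAP1, AXL, AMOTL2 and LATS2 had 1 match each, shown with the neighbouring bases on the strand of the gene, as CATTCC where the core lies on the opposite strand. They lie at chr11:102110275-102110300 for YAP1, chr19:41226533-41226558 for the second AXL start, chr3:134374501-134374526 for the second AMOTL2 start and chr13:21061562-21061587 for LATS2, where the match follows the start site by 9 bases.
YAP1: ggagtgtgcaGGAATGtagcaacttg
AXL: gactttgcacCATTCCactccctccg
AMOTL2: gaaactctcaCATTCCtggcatagca
LATS2: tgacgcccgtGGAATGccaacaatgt

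AP-1 often sits beside TEAD at its targets. Its core has C or G as the middle base and was searched more loosely, as TGANTCA with N any base. This looser pattern matched in 1 of the 10 windows, that of ANKRD1, and in 7.71% of all windows. The ANKRD1 match reads TGATTCA, with T in the middle, and so is not the core itself. The CArG box of SRF matched in 0 of the 10 windows and in 1.29% of all windows. A match of letters is not a measured site.

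All 10 genes were expressed and passed the minimum of 1 FPKM in at least 1 column, which 12822 genes of the table did. CYR61 was the highest of the 10 in Scr, at 216 FPKM, above 98.1% of these genes, and AXL followed at 153 FPKM. ANKRD1 was at 81.6 FPKM, AMOTL2 at 57.1 FPKM, WWTR1 at 54.9 FPKM, TEAD1 at 49.6 FPKM and YAP1 at 49.2 FPKM. CTGF, LATS2 and TEAD4 were lowest, at 19.99, 19.0 and 13.5 FPKM, and TEAD4 was still above 56.7% of the genes compared. CYR61 and CTGF, both secreted matricellular proteins of the CCN family, thus stood far apart in level. Whether neighbours in this order differ beyond the spread between libraries cannot be told from 1 value per gene. In the CD24 KO column, AXL was above CYR61 and TEAD4 was again lowest. In the RCC2 KO column, CYR61 and AXL were both at 215 FPKM and LATS2 was lowest.

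**Figure D1:**
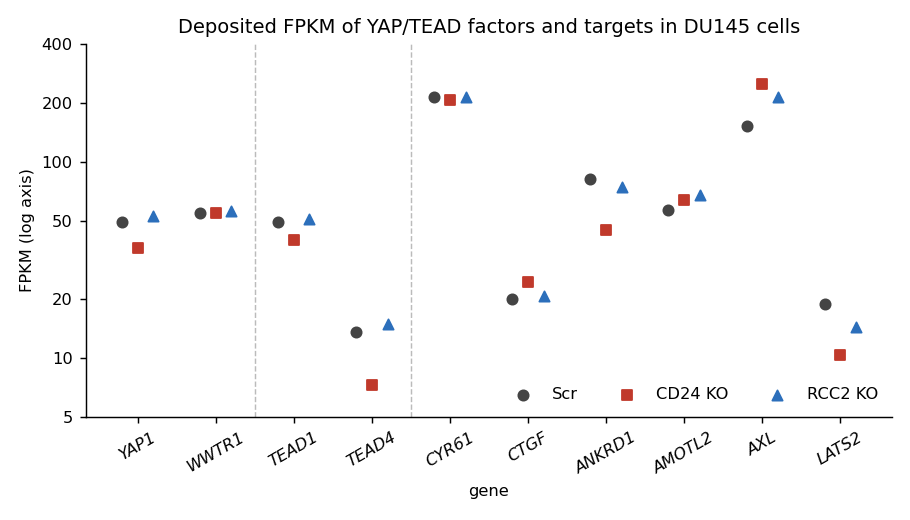
Deposited FPKM (log axis) of the coactivators, TEAD factors and targets, separated by dashed lines, with 1 point per gene and column (circles Scr, squares CD24 KO, triangles RCC2 KO) and no error bars because the table holds 1 value per condition. TEAD4, ANKRD1 and LATS2 have their lowest values in CD24 KO, AXL has its highest there, and CYR61 lies between 208 and 216 FPKM in all 3 columns.

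Changes were taken as differences of log2(FPKM + 1), which understates those of low genes, and 2-fold on this scale was the minimum for a call. In CD24 KO against Scr, 0 of the 10 genes reached it, where 5.69% of the genes compared did. In RCC2 KO against Scr it was also 0 of 10, against 1.20% of genes, and in RCC2 KO against CD24 KO 0 of 10, against 8.31%. At a 1.5-fold minimum, 4 of the 10 genes were past it in CD24 KO (21.1% of genes), 0 in RCC2 KO (5.27%) and 2 between the knockouts (27.9%). The median of the absolute differences over the 10 genes was 0.37 in CD24 KO, where it was 0.30 over all genes compared, and 0.12 in RCC2 KO, where it was 0.15. Both knockouts were read against the same Scr column.

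YAP1 and TAZ, which are paralogs, stood apart in CD24 KO. YAP1 was at 49.2 (Scr), 36.3 (CD24 KO) and 53.1 FPKM (RCC2 KO), log2 differences from Scr of -0.43 and 0.11. WWTR1 was at 54.9, 54.7 and 56.3 FPKM, log2 differences of -0.01 and 0.03. The value of YAP1 was lowest in CD24 KO and that of WWTR1 was nearly level across the columns. YAP1 accordingly made up 47.2% of the FPKM summed over both coactivators in Scr, 39.9% in CD24 KO and 48.6% in RCC2 KO. The YAP1 difference in CD24 KO was not rare, since 34.6% of genes moved at least as far. WWTR1 shares its position in the table with its antisense RNA WWTR1-AS1, which was at 0.989, 0.408 and 0.477 FPKM.

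Both TEAD factors of the set were lowest in CD24 KO. TEAD1 was at 49.6 (Scr), 40.0 (CD24 KO) and 51.3 FPKM (RCC2 KO). TEAD4 was at 13.5, 7.31 and 14.9 FPKM, a log2 difference from Scr of -0.80 in CD24 KO, beside 0.13 in RCC2 KO. As FPKM, TEAD4 was 45.9% below Scr in CD24 KO, and 10.1% of genes moved at least as far on the log2 scale. Of the paralogs outside the set, TEAD2 had the same order at 11.8, 11.5 and 12.2 FPKM, and TEAD3 the reverse one at 6.44, 8.93 and 5.18 FPKM. TEAD3 was thus highest in the column in which TEAD4 was lowest. The log2 difference of TEAD2 in CD24 KO was only -0.04. Rescaling the columns to equal sums moved the median of all genes there by more, 0.21, so the order of TEAD2 depends on the scale. Summed over the 4 TEADs, the level was 81.4 (Scr), 67.7 (CD24 KO) and 83.6 FPKM (RCC2 KO). The columns as a whole sum to 451272, 388764 and 447005 FPKM, also lowest in CD24 KO, and the TEAD sum was not rescaled. TEAD4 held 16.6% of this sum in Scr, 10.8% in CD24 KO and 17.8% in RCC2 KO, whereas TEAD1 held between 59.1% and 61.4%. Of the VGLL cofactors, which compete for TEADs, VGLL1, VGLL2 and VGLL3 were listed at 0 in every column and VGLL4 was at 11.9, 10.9 and 11.8 FPKM.

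The 6 targets did not move one way in CD24 KO. ANKRD1, a stretch-responsive ankyrin repeat protein, was at 81.6 (Scr), 45.0 (CD24 KO) and 74.5 FPKM (RCC2 KO). Its log2 difference from Scr was -0.84 in CD24 KO and -0.13 in RCC2 KO. It was the largest difference of the 10 genes in CD24 KO as deposited, and 9.09% of genes moved at least as far. LATS2, the kinase of the feedback loop, was at 19.0, 10.3 and 14.4 FPKM, log2 differences of -0.81 and -0.37. AXL, a receptor tyrosine kinase of the TAM family tied to invasion and drug resistance, was at 153, 249 and 215 FPKM, log2 differences of 0.70 and 0.49. Its CD24 KO value was 63.1% above Scr as FPKM and its RCC2 KO value 40.5% above. The difference of AXL in RCC2 KO was the largest of the 10 genes there, and 8.31% of genes moved at least as far. LATS2 thus had its highest value in Scr and AXL its lowest.

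CYR61, the most abundant target in Scr, was the most level one, at 216 (Scr), 208 (CD24 KO) and 215 FPKM (RCC2 KO). Its log2 differences from Scr were -0.05 and -0.01. CTGF was at 19.99, 24.5 and 20.8 FPKM, log2 differences of 0.28 and 0.05. AMOTL2, an angiomotin that holds YAP at junctions, was at 57.1, 64.3 and 68.1 FPKM, log2 differences of 0.17 and 0.25. The 3 targets most used to gauge YAP thus lay on different sides of Scr in CD24 KO, ANKRD1 below, CTGF above and CYR61 within 3.63% of its Scr level. Over the 6 targets, the median log2 difference was 0.06 in CD24 KO and 0.02 in RCC2 KO, each with 3 genes higher and 3 lower. The split became 4 and 2 in each knockout after rescaling the columns to equal sums, when CYR61 changed sides. Of all 14222 genes then compared, 9116 were higher in CD24 KO and 7155 in RCC2 KO. CTGF and ANKRD1, the genes with repeated TEAD cores in the promoters printed above, had opposite signs in CD24 KO.

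**Figure D2:**
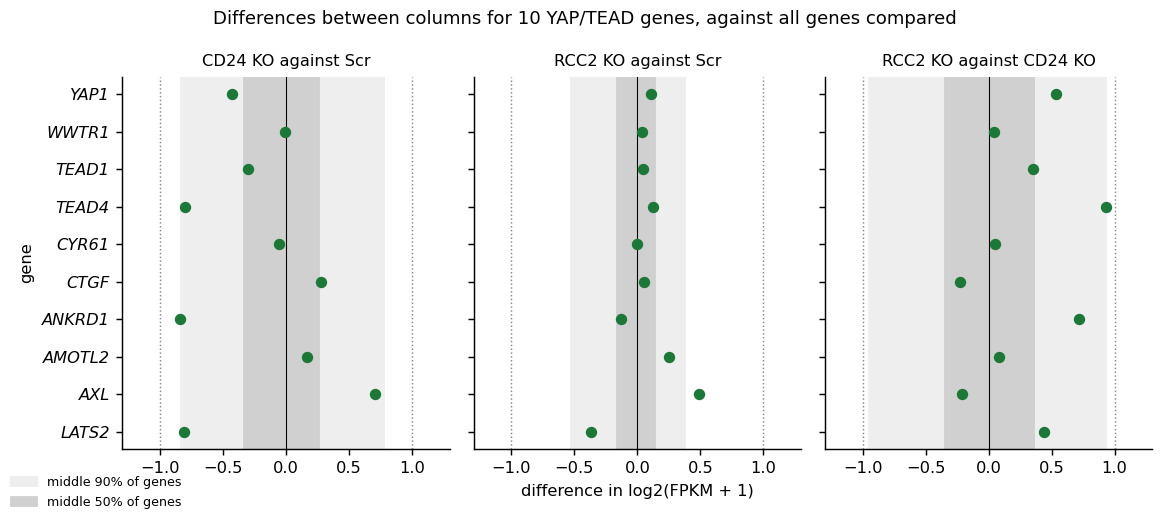
Difference in log2(FPKM + 1) of the 10 genes in each of the 3 comparisons (points), over bands that hold the middle 50% and 90% of the 12822 genes compared, with dotted lines at 2-fold. ANKRD1 at -0.84 in CD24 KO, AXL at 0.49 in RCC2 KO and TEAD4 at 0.93 between the knockouts lie just outside the 90% band, and no point reaches a dotted line.

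The knockouts were also set directly against each other, which leaves out the Scr values they share. TEAD4 exceeded its CD24 KO value in RCC2 KO by a log2 difference of 0.93, or 2.03 times as FPKM. ANKRD1 was higher by 0.72, YAP1 by 0.54, LATS2 by 0.44 and TEAD1 by 0.35. CTGF and AXL were lower in RCC2 KO, by log2 differences of -0.23 and -0.21. The differences of AMOTL2, CYR61 and WWTR1 were 0.08, 0.05 and 0.04, and their sign turned under quantile normalization and under rescaling to equal sums. Over the 10 genes, 8 were higher in RCC2 KO and 2 lower, with a median of 0.22, where 51.6% of all genes were higher and their median was 0.02. The split became 5 and 5 under quantile normalization and after rescaling, with medians of 0.05 and 0.02. After rescaling, 5169 of 14222 genes compared were higher in RCC2 KO, and the median of all genes was -0.19. Relative to all genes, the median of the 10 genes was 0.20 as deposited, 0.21 after rescaling and 0.04 under quantile normalization.

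The scale of the columns bears on the small differences. The columns sum to 451272, 388764 and 447005 FPKM, in part because RNR2, the mitochondrial large ribosomal RNA, is listed at 0 in CD24 KO and at 26884 and 22704 FPKM in Scr and RCC2 KO. Rescaling the columns to equal sums shifted the median of all genes in CD24 KO against Scr by 0.21. The differences of WWTR1 and CYR61 in CD24 KO then became 0.21 and 0.16, whereas YAP1, TEAD1, TEAD4, ANKRD1 and LATS2 kept values below 0 and AXL, CTGF and AMOTL2 values above 0 in all 8 alternatives. Relative to all genes, the median of the 10 genes in CD24 KO was -0.15 as deposited, -0.14 after rescaling and -0.05 under quantile normalization.

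A wider signature of 22 YAP/TAZ targets, written from memory and holding the 6 targets above, was also mixed. Of its genes, 21 were compared, and FOXF2 was listed at 0 in every column. In CD24 KO, 11 genes were higher and 10 lower than in Scr, with a median log2 difference of 0.06, beside -0.03 for all genes. In RCC2 KO, 10 were higher and 11 lower, with a median of -0.01, beside -0.0036 for all genes. After rescaling the columns to equal sums, the split was 15 higher and 6 lower in CD24 KO and 11 higher and 10 lower in RCC2 KO. Of all 14222 genes then compared, 9116 were higher in CD24 KO and 7155 in RCC2 KO. Past 2-fold in CD24 KO were 1 gene in each direction and in RCC2 KO none of the 21, beside 5.69% and 1.2% of all genes. IGFBP3, which binds insulin-like growth factors, was at 133 (Scr), 14.3 (CD24 KO) and 79.7 FPKM (RCC2 KO), log2 differences from Scr of -3.13 and -0.73. GADD45A, a growth arrest and DNA damage gene, was at 27.9, 75.4 and 26.9 FPKM, log2 differences of 1.40 and -0.05. CCDC80, a secreted matrix protein, was at 6.91, 14.5 and 9.06 FPKM, and TGFB2 at 11.6, 22.2 and 14.2 FPKM. Without the 6 targets the median was 0.06 in CD24 KO and -0.04 in RCC2 KO over 15 genes.

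**Figure D3:**
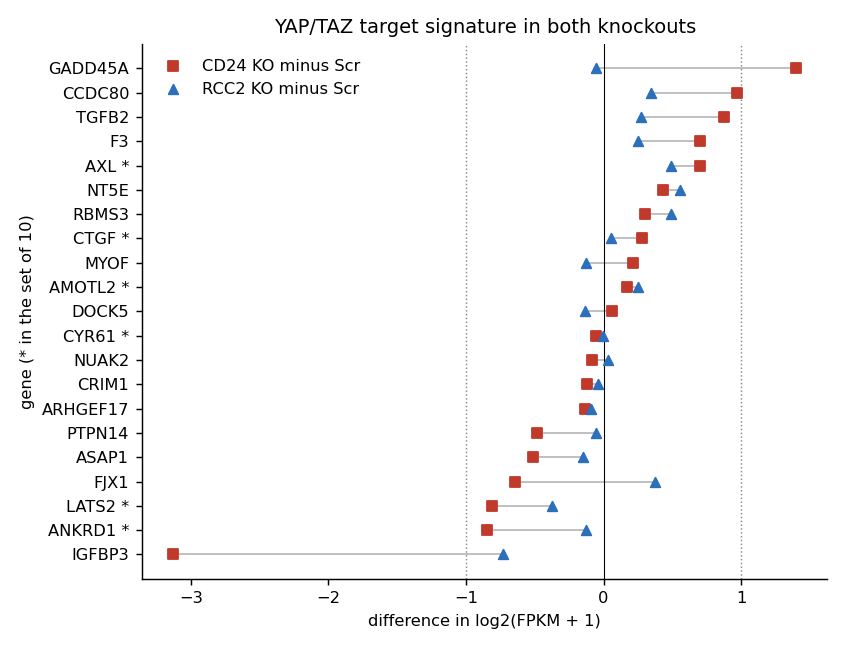
Difference in log2(FPKM + 1) from Scr for the 21 compared genes of the target signature, ordered by the value in CD24 KO (squares), with RCC2 KO as triangles, an asterisk for genes of the set of 10 and dotted lines at 2-fold. The squares run from -3.13 for IGFBP3 to 1.40 for GADD45A, and no triangle passes a dotted line.

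The Hippo kinases upstream of YAP and their scaffolds and activators, such as SAV1, MOB1A and NF2, were expressed in all 3 columns, with 20 of 20 genes compared and none past 2-fold in either knockout. Over all genes compared, 5.69% were past 2-fold in CD24 KO and 1.2% in RCC2 KO. The median log2 difference of the list was -0.07 in CD24 KO, with 9 genes higher and 11 lower, where 47.0% of all genes were higher. In RCC2 KO it was 0.03, with 14 higher and 6 lower, where 49.3% were higher. After rescaling, 14 were higher and 6 lower in CD24 KO and 15 and 5 in RCC2 KO. Of all 14222 genes then compared, 9116 and 7155 were higher, respectively. The median of the list in CD24 KO turned to 0.14, where that of all genes was 0.18. LATS2 had the largest difference of the list in CD24 KO as deposited. Its paralog LATS1 was at 12.3 (Scr), 9.71 (CD24 KO) and 12.4 FPKM (RCC2 KO). SAV1, the scaffold of the MST kinases, was at 37.4, 64.1 and 35.5 FPKM, a log2 difference of 0.76 in CD24 KO. MAP4K4, which can phosphorylate LATS in place of MST, was at 23.2, 38.9 and 27.0 FPKM. In CD24 KO the scaffold SAV1 and the kinase LATS2 therefore lay on opposite sides of Scr.

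Junction and polarity proteins hold YAP outside the nucleus or recruit LATS. Of 23 genes listed, 22 were in the table and 21 were compared, with a median log2 difference of -0.15 in CD24 KO, beside -0.02 in RCC2 KO, and 10 genes higher and 11 lower in each. The sign in CD24 KO was not stable. The median was 0.03 after rescaling to equal sums, with 12 higher and 9 lower. That of all genes was then 0.18, with 9116 of 14222 higher. When the sums were taken only over genes above 0 in every column, which leaves out RNR2, 10 were higher and 11 lower. Of all 14288 genes then compared, 8658 were higher. This rescaling was added after the data were seen. Over the 19 genes with at least 1 FPKM in every column the median was 0.09, where that of all such genes was -0.06. In CD24 KO, 1 gene was past 2-fold in each direction, and none in RCC2 KO, beside 5.69% and 1.2% of all genes. CRB3, a Crumbs polarity protein, was at 9.31 (Scr), 20.1 (CD24 KO) and 13.1 FPKM (RCC2 KO), log2 differences of 1.03 and 0.45. FAT4, a giant cadherin, was at 3.48, 0.735 and 2.80 FPKM, a log2 difference of -1.37 in CD24 KO, and is named because it made up the count of lower genes. CDH1, E-cadherin, was at 27.9, 52.6 and 23.7 FPKM, and CTNNA1, α-catenin, which links it to actin, at 176, 117 and 173 FPKM. These partners of the adherens junction thus lay on opposite sides of Scr in CD24 KO, by 0.89 and -0.59 on the log2 scale. AMOTL1, a paralog of AMOTL2, was at 7.21, 8.26 and 6.03 FPKM.

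Among the relatives of CYR61 and CTGF, WISP2 was at 21.99 (Scr), 50.9 (CD24 KO) and 20.7 FPKM (RCC2 KO), a log2 difference of 1.18 in CD24 KO. NOV was at 1.84, 3.31 and 1.76 FPKM, WISP1 was listed at 0 in every column and WISP3 was below 0.1 FPKM. CYR61 made up 83.1% of the FPKM summed over the CCN family in Scr, 72.5% in CD24 KO and 83.2% in RCC2 KO. The other TAM receptors, TYRO3 and MERTK, did not share the order of AXL. TYRO3 was at 6.41, 6.34 and 5.95 FPKM and MERTK at 7.84, 6.15 and 5.196 FPKM, so that MERTK had its highest value in Scr, where AXL had its lowest. AXL held 91.5% of the FPKM of the 3 receptors in Scr and 95.2% and 95.1% in the knockouts. Its ligand GAS6 was at 5.95, 7.98 and 6.74 FPKM. PROS1, a ligand of the related receptors, was at 51.3, 94.6 and 41.2 FPKM.

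CYR61, CTGF and ANKRD1 also answer to other inputs than YAP, namely SRF with its actin-sensing MRTF cofactors, serum and TGF-β. The 14 compared genes of SRF and its cytoskeletal targets had a median log2 difference of -0.08 in CD24 KO, beside 0.06 in RCC2 KO. The former became 0.13 after rescaling, with the split moving from 6 higher and 8 lower to 8 and 6. The median of all genes in CD24 KO was then 0.18, with 9116 of 14222 genes higher, beside -0.03 as deposited. The sign of the list's median in CD24 KO thus depended on the scale of the columns. TAGLN, a smooth muscle actin-binding protein, was at 20.3 (Scr), 4.13 (CD24 KO) and 23.0 FPKM (RCC2 KO), a log2 difference of -2.05 in CD24 KO, and TPM1, a tropomyosin, was at 39.4, 24.3 and 43.8 FPKM. FHL2, which binds SRF, went the other way, at 18.5, 29.1 and 26.9 FPKM. The 12 compared immediate early genes, which serum induces within minutes, had medians of -0.21 and -0.08, beside -0.03 and -0.0036 for all genes. In CD24 KO 5 were higher and 7 lower, and in RCC2 KO 4 and 8, where 47.0% and 49.3% of all genes were higher. The CD24 KO median was -0.05 under quantile normalization, where that of all genes was 0.003. Over genes with at least 1 FPKM in every column it was -0.09, beside -0.06 for all such genes. FOS was at 27.8 (Scr), 3.58 (CD24 KO) and 4.84 FPKM (RCC2 KO), log2 differences of -2.65 and -2.30. EGR1 was at 87.2, 81.7 and 43.4 FPKM and JUNB at 45.2, 36.1 and 21.95 FPKM. CYR61, itself counted among the immediate early genes, was thus level in columns in which FOS was several times lower. The 10 compared TGF-β genes had medians of 0.05 and -0.07, and SMAD2 was at 25.8, 22.3 and 15.3 FPKM and TGFBR2 at 39.7, 55.6 and 64.6 FPKM.

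Read as a gauge of culture density, the YAP targets gave no single direction. The medians of some lists tied to growth and crowding lay far from 0. All these lists were chosen with earlier results of these data known, so setting them side by side is not a test. The proliferation list was lower in CD24 KO for 20 of 20 genes, with a median log2 difference of -1.04 and 11 genes past 2-fold, and its median in RCC2 KO was 0.04. Over all genes compared, 52.9% were lower in CD24 KO and 50.6% in RCC2 KO, and 5.69% were past 2-fold in CD24 KO. RRM2, a subunit of ribonucleotide reductase, was at 138 (Scr), 40.1 (CD24 KO) and 141 FPKM (RCC2 KO). The hypoxia list, with 9 of 10 genes compared, had a median of -1.21 in CD24 KO, with 2 genes higher and 7 lower, beside -0.18 in RCC2 KO, with 3 higher and 6 lower. In CD24 KO 5 of the 9 were past 2-fold, all of them lower. ANGPTL4, with the largest difference of the list there, was at 38.6, 3.33 and 19.6 FPKM, and LDHA at 710, 308 and 597 FPKM. VEGFA, the angiogenic growth factor, was at 64.1, 120 and 80.4 FPKM, and with EGLN3 made up the 2 that were higher in CD24 KO. The cholesterol list had a median of 0.42 in CD24 KO beside -0.63 in RCC2 KO. The growth arrest list, with 9 of 10 genes compared, had medians of 0.07 and -0.13. In CD24 KO 7 of its genes were higher and 2 lower, where 47.0% of all genes were higher. In RCC2 KO 3 were higher and 6 lower, where 49.3% of all genes were higher. Past 2-fold were 2 higher and 1 lower in CD24 KO and 1 lower in RCC2 KO, beside 5.69% and 1.2% of all genes. CDKN2B, the CDK inhibitor p15, was at 5.18, 13.8 and 5.03 FPKM, and TXNIP, an arrestin that restrains glucose uptake, at 82.9, 34.7 and 7.52 FPKM. The 10 YAP/TEAD genes had a median of -0.18 in CD24 KO as deposited, with 7 of 10 genes lower, where 52.9% of all genes were. After rescaling, 5 of 10 were lower, where 5085 of 14222 genes were. Their median in RCC2 KO was 0.05 as deposited, with 3 of 10 lower where 50.6% of all genes were. The study's methods name DMEM as the medium of the line. The density and time at which cultures were harvested for RNA are not given in the sources used here, and their part in these values was not tested. A clone, a knockout and a culture cannot be told apart with 1 column per label.

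**Figure D4:**
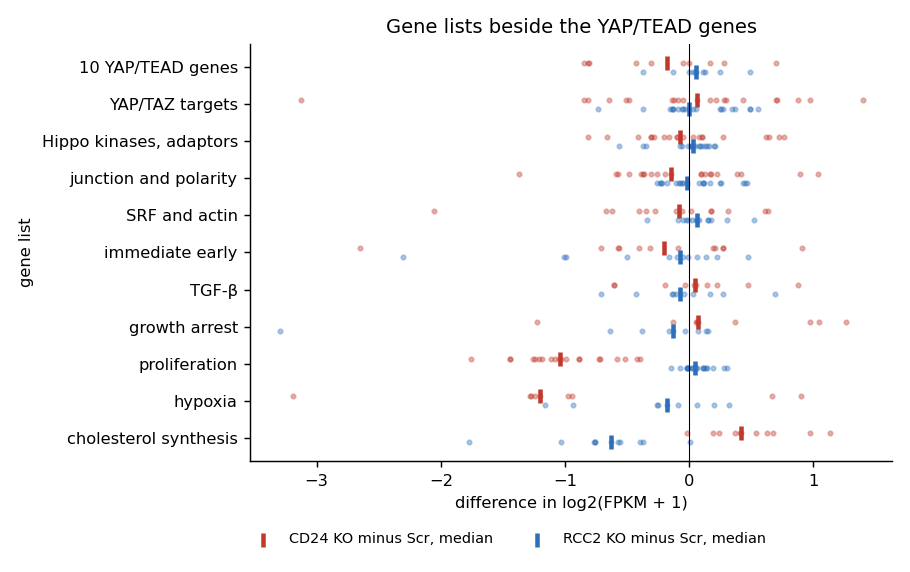
Difference in log2(FPKM + 1) from Scr of the compared genes (dots) and their median (bars) for the 10 YAP/TEAD genes and for lists of their pathway and of culture state, CD24 KO above and RCC2 KO below in each row. The YAP/TEAD and target medians lie within 0.2 of 0, and those of proliferation (-1.04) and hypoxia (-1.21) in CD24 KO lie far below it. The lists were chosen with earlier results of these data known.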

How the data were processed

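The study's methods name a stranded mRNA kit and paired-end sequencing, and the labels an RNA kit applied to total RNA. The deposited FPKM table holds 1 value per gene and condition. The labels name HISAT, StringTie, Cufflinks and GATK, with no role or version. The genome build is not given in the sources used here. Of the 10 genes, 1 overlapped its GRCh38 position in GENCODE 29, so the coordinates are not GRCh38, and positions are given only for RefSeq promoters. The members and lists were chosen with earlier results of these data known. Lists were written from memory.

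Genes with at least 1 FPKM in at least 1 column were compared as log2 of the FPKM plus a pseudocount of 1, with calls at 2-fold. From each list, genes past 2-fold or else the 3 largest differences were eligible to be named, among genes above 0 in every column and reaching 5 FPKM. Of the eligible proliferation, hypoxia, cholesterol and growth arrest genes, only some are given as examples, and values of lists' other genes were named after being seen. For CYR61, CTGF and YAP1 the nearest patterns were sought by Euclidean distance. Calculations were tested on simulated data. Alternatives changed the pseudocount, filter, scaling and fold minimum. Python 3.11.15, NumPy 2.4.6, pandas 2.3.3 and matplotlib 3.10.9 were used.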

Additional observations from a re-analysis of the deposited data

How the results depend on the processing

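No paired analysis was possible because the table holds 1 value per condition, and no library could be left out for the same reason. A value was taken as unmoved when it shifted by less than 0.1 on the log2 scale. Of 30 differences (10 genes in 3 comparisons), 16 moved and 5 changed sign under quantile normalization, and 20 moved and 6 changed sign after rescaling to equal sums. Pseudocounts of 0.1 and 5, both filters and median centring changed 1 sign, that of WWTR1 in CD24 KO under centring. Rescaling also lowers the pseudocount and the filter relative to the values. The median of the 10 genes in CD24 KO was -0.046 with quantile normalization, 0.033 after rescaling and -0.016 when rescaled over genes above 0 in every column, an alternative added after the data were seen. Between the knockouts it was 0.048, 0.021 and 0.076 in the same order. The medians of all genes were 0.003, 0.18 and 0.13 in CD24 KO and 0.003, -0.19 and -0.14 between the knockouts. The median of the 22-gene signature in CD24 KO was 0.27 after rescaling and 0.23 with the added rescaling. Relative to all genes these values were 0.10 and 0.09, against 0.09 as deposited. Between the knockouts the signature's median was -0.10 with quantile normalization, -0.12 after rescaling and -0.061 with the added rescaling, against 0.08 as deposited. Relative to all genes these values were -0.10, 0.07 and 0.07, against 0.07 as deposited. With a pseudocount of 0.1, 1 of the 10 genes, TEAD4 at 1.01, passed 2-fold between the knockouts.

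The number of all genes past 2-fold also moved. In CD24 KO against Scr it was 730 as deposited, 1262 and 278 with pseudocounts of 0.1 and 5, and 1276 and 1250 with the rescalings. In RCC2 KO against Scr it was 154, then 443 and 54, 67 when every column had to reach 1 FPKM, and 288 and 306 with the rescalings. Between the knockouts it was 1066, then 1850 and 380, and 1874 and 1806. At 1.5-fold, 2709, 676 and 3580 genes and 4, 0 and 2 of the 10 genes passed. Apart from the constructions named, the cause was not tested.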

Other observations

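The genes around each of the 10 on its chromosome were compared with it, taking the 10 compared genes on either side. For ANKRD1 on chromosome 10, the median log2 difference of these 20 neighbours in CD24 KO was 0.06, and 0 of 20 lay below ANKRD1 at -0.84. For LATS2 on chromosome 13 the neighbours had a median of -0.32 in CD24 KO, and 2 of 20 lay below LATS2 at -0.81. For TEAD4 on chromosome 12 the median was -0.21, with 2 of 20 below TEAD4, and for YAP1 on chromosome 11 it was 0.12, with 2 of 20 below YAP1. For AXL on chromosome 19 the neighbours had a median of 0.02 in CD24 KO beside -0.06 in RCC2 KO, with 18 and 20 of 20 below AXL. Copy number was not measured.

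Genes with at least 5 FPKM in every column (8125 genes) were ranked by the distance of their pair of log2 differences from that of a member. Nearest to CYR61 were USP34, TMLHE and DYRK2, at distances up to 0.0069. Nearest to CTGF were SLC38A2, an amino acid transporter, FAHD2A and RPS15A, a ribosomal protein, up to 0.0073. Nearest to YAP1 were YARS2, a mitochondrial tyrosyl-tRNA synthetase, AKAP1 and DICER1, up to 0.0090. With 3 columns such likeness is common, since 6.68%, 3.39% and 3.73% of these genes lay within 0.1 of CYR61, CTGF and YAP1, respectively.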
